A study of Mus musculus with 15 samples.

Results

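The genes Ep300, Crebbp, Brd2, Hdac1, Hdac2, Hdac3, Ncor1 and Sirt1 encode proteins that add, bind or remove acetyl groups on histones. These 8 genes were taken by name from the 21911 protein-coding genes of the GENCODE M21 annotation (mm10). No measured value entered the rule, but the genes were chosen with earlier results of these data known. All 8 were found. Called regions were counted over each gene body plus 5 kb upstream, referred to as the window.

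Acetylation of histone tails is a reversible mark of active chromatin. It is written by acetyltransferases such as p300 (Ep300) and CBP (Crebbp), which acetylate histone H3 at lysine 27, it is bound by bromodomain proteins such as BRD2, and it is erased by the class I deacetylases HDAC1, HDAC2 and HDAC3 and by the NAD-dependent deacetylase SIRT1. HDAC1 and HDAC2 work in the Sin3, NuRD and CoREST complexes, while HDAC3 works with the corepressor NCOR1, which holds inflammatory genes down in resting macrophages.

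The regions came from CUT&RUN, in which nuclease tethered by an antibody cuts out the chromatin that carries the target, in mouse bone marrow-derived macrophages (BMDMs) grown for 6 to 8 days with 20% L929-conditioned medium. WT cells were H3f3a fl/fl H3f3b fl/fl without Cre, and H3.3 cKO cells carried the same floxed alleles of both H3.3 genes with LysM-Cre, in which Cre stands at the myeloid gene Lyz2. The H3.3-HA cells carried an HA tag at H3f3b and were a separate genotype. Mice were of both sexes, 8 to 10 weeks old, on a C57BL/6 background. The deletion of H3f3b in cKO cells was described as complete in some samples and partial in others. H3K27ac, a mark of active promoters and enhancers, and H3K36me3, a mark laid along transcribed gene bodies, were profiled in WT and cKO cells, and H3.3-HA in the tagged cells, with 2 libraries in each of the 5 groups, which the labels call biological replicates.

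The H3K27ac libraries held 16444864 to 29988098 tags and 35018 to 61764 regions, the H3K36me3 libraries 14027132 to 23782914 tags and 43586 to 49931 regions, and the H3.3-HA libraries 5365319 to 6951296 tags and 49099 to 50456 regions. The lists give the position of each region and no signal, so presence and length were compared. Of 8 macrophage genes, including Csf1r and Spi1, 6 to 7 had an H3K27ac region at a promoter in each library, and of 10 markers of T cells, B cells, neutrophils, erythroid cells and stroma none did in any library. H3K27ac regions were called in the windows of H3f3a and H3f3b in both cKO libraries. The floxed intervals were not examined on their own, so whether the lists show the deletion was not tested. Among the H3K36me3 libraries, cKO replicate 1 stood apart. It covered 90.7 Mb, against 163 to 170 Mb in the other 3, with 19.3% of its tags in regions against 46.5 to 50.2%. The H3K27ac libraries differed by genotype. Regions held 24.1% and 21.5% of the tags in WT and 11.8% and 17.8% in cKO. They covered 89.61 and 74.76 Mb in WT and 46.16 and 61.96 Mb in cKO. The cKO replicate 1 library was lowest in both measures, although it had the most tags. Whether this difference between libraries accounts for shorter or lost H3K27ac regions at single genes in cKO was not tested. WT and cKO regions were called over different IgG controls, and genotype and control cannot be told apart in any comparison below.

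To show where H3K27ac lay at these genes, RefSeq promoters (GRCm38.p6, 250 bases before to 50 after the start) of 4 members are printed 5′ to 3′ on the strand of the gene. Brd2 and Crebbp are shown as promoters covered in cKO alone, and Ep300 and Sirt1 as promoters with a region in both WT libraries. The table held 9 promoters of 6 members and no entry for Hdac1 or Hdac3. Capitals mark the letters CCGGAAG (the core of an ETS site), GCATGCG (part of an NRF1 site) or GGGCGG (a GC box), on either strand.
Brd2 (chr17:34122558-34122857, minus strand): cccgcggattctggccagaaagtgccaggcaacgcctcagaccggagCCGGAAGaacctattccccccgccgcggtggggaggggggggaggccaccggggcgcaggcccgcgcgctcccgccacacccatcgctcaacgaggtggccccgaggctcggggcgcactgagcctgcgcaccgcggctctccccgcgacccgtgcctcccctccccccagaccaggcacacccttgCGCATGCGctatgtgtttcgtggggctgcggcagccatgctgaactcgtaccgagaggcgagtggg
Crebbp (chr16:4213355-4213654, minus strand): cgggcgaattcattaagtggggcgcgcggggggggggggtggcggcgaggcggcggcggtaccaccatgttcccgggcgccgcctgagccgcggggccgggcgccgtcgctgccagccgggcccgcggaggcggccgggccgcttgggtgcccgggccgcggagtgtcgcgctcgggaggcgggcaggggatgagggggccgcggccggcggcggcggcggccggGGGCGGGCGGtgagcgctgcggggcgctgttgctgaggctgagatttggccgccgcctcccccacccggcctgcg
Ep300 (chr15:81585964-81586263, plus strand): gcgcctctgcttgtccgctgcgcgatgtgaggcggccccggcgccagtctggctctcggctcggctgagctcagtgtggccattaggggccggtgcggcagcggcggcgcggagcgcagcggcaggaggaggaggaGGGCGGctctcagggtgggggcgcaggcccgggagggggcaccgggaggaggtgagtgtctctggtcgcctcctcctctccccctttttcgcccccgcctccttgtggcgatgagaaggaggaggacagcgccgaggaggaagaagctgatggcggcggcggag
Sirt1 (chr10:63338986-63339285, minus strand): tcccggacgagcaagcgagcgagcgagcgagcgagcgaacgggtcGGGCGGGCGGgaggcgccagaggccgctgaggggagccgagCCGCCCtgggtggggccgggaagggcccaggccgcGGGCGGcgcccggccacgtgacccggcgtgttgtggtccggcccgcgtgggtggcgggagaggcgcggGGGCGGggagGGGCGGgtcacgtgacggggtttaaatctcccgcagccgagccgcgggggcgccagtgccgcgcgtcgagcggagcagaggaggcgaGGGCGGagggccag

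H3K27ac regions covered all 300 bases of the printed Brd2 promoter in both cKO libraries and 0 in both WT libraries. Another Brd2 promoter, at chr17:34121698-34121997, gave the same values. The Brd2 promoter at chr17:34119851-34120150 had 0 and 178 bases covered in WT and 300 in both cKO libraries. Over the Crebbp promoter H3K27ac regions covered 261 and 300 bases in cKO and 0 in both WT libraries. The Ep300 promoter was covered by 300 and 119 bases in WT and by 300 in both cKO libraries. The Sirt1 promoter showed another order, with 289 and 300 bases in WT and 21 and 300 in cKO. The RefSeq starts of Ep300 and Crebbp lie 817 and 593 bp past the first base used for these genes below, and those of Brd2 and Sirt1 printed here lie within 7 bp of it. No H3.3-HA region overlapped any of the 9 promoters. The member promoters had a median of 72.3% G and C and 32 CG pairs, against 52.7% and 7 over the 32851 promoters of the table. A GC box was found in 7 of the 9 and in 35.7% of all promoters. The ETS core was found at Brd2 and Ncor1 (8.86% of all) and the NRF1 letters at Brd2 (3.58% of all). TGACGTCA (a CRE, 1.79% of all), CCAAT (37.4%) and TATAAA (13.6%) matched no member promoter.

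H3K27ac regions reached the start sites of these genes more often in cKO than in WT. The first base of the reference transcript, the one with the lowest transcript number in the annotation of each gene, lay inside a region at 1 and 3 of the 8 genes in the WT libraries and at 6 and 8 in the cKO libraries. It was covered in the pair of cKO libraries and in no WT library at 4 genes, Ep300, Brd2, Hdac1 and Hdac3, and the opposite pattern was found at 0. Over 21249 genes these shares were 11.6% and 1.15%, and among the 9551 genes with an H3K27ac promoter region in at least 1 library they were 25.8% and 2.57%. Over all protein-coding genes the direction was the same, and 15% and 14.9% of first bases were covered in WT and 25.1% and 33.6% in cKO. The shift at the members was thus seen across the genome, although the cKO lists held fewer H3K27ac regions than the WT lists. This count of first bases was added after the values were seen. With regions of at least 1 kb alone, it was 2 genes.

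**Figure D1:**
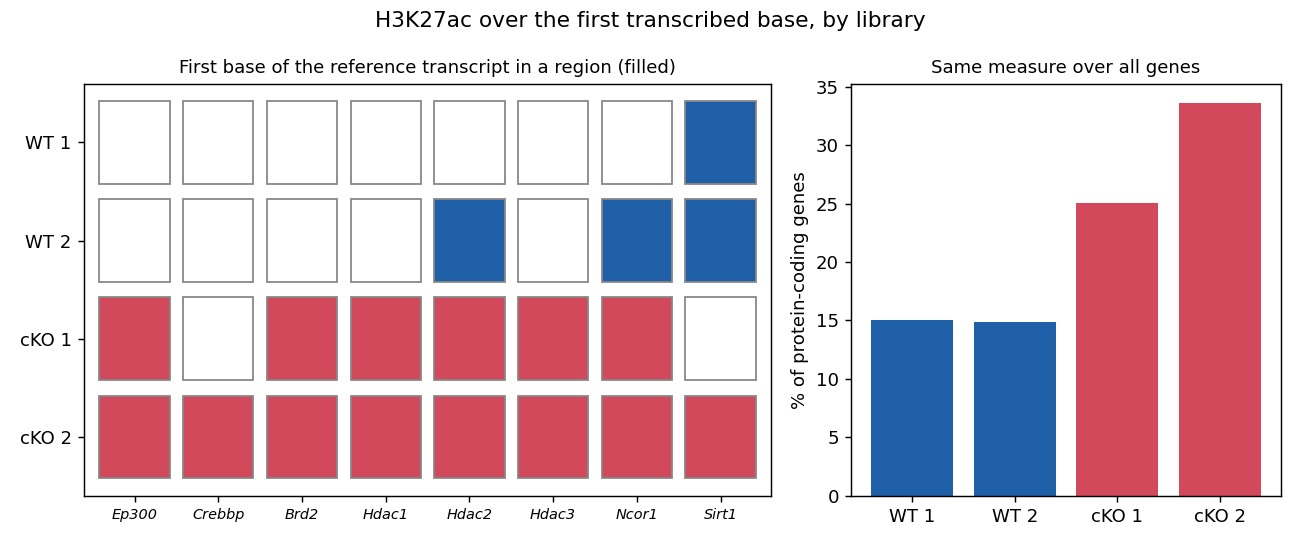
Left, the H3K27ac libraries (vertical) in which the first base of the reference transcript of each gene (horizontal) lay inside a called region, filled blue for WT and red for cKO. Right, the percent of all 21249 genes with a first base covered in each library, which was 15 and 14.9 in WT and 25.1 and 33.6 in cKO.

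With a wider promoter, 1 kb upstream to 100 bp downstream of any protein-coding transcript start, an H3K27ac region was found at 4 of the 8 genes in each WT library and at 8 in each cKO library. It was present in all 4 libraries at 3 genes, Crebbp, Ncor1 and Sirt1, against 19.9% of all 21911 genes. These libraries need not share a start. At Crebbp the WT regions centred on a promoter lay at internal starts, from +118379 bp in replicate 1 and from +84999 and +118775 bp in replicate 2. Those of cKO replicate 1 lay from +103 and +84889 bp, and a region of cKO replicate 2 spanned -391 to +1855 bp. At Ncor1 those of WT replicate 1 lay from +71314 and +72966 bp. The cKO libraries had an H3K27ac promoter region where no WT library did at 3 genes, Brd2, Hdac1 and Hdac3, and the WT libraries alone at 0. Over all 21911 genes these counts were 1342 (6.12%) and 339 (1.55%). All 8 members had such a region in at least 1 library, as did 9551 of the genes with a reference transcript. Shares limited to genes with a promoter region were not computed and would be higher. The 2 shares given therefore do not show an excess at the members. The count in one genotype alone was added after the values were seen, and it depended on the promoter used. With 1 kb on both sides of each start it was 1 gene in place of 3, because WT regions past the start then fell inside the promoter.

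**Figure D2:**
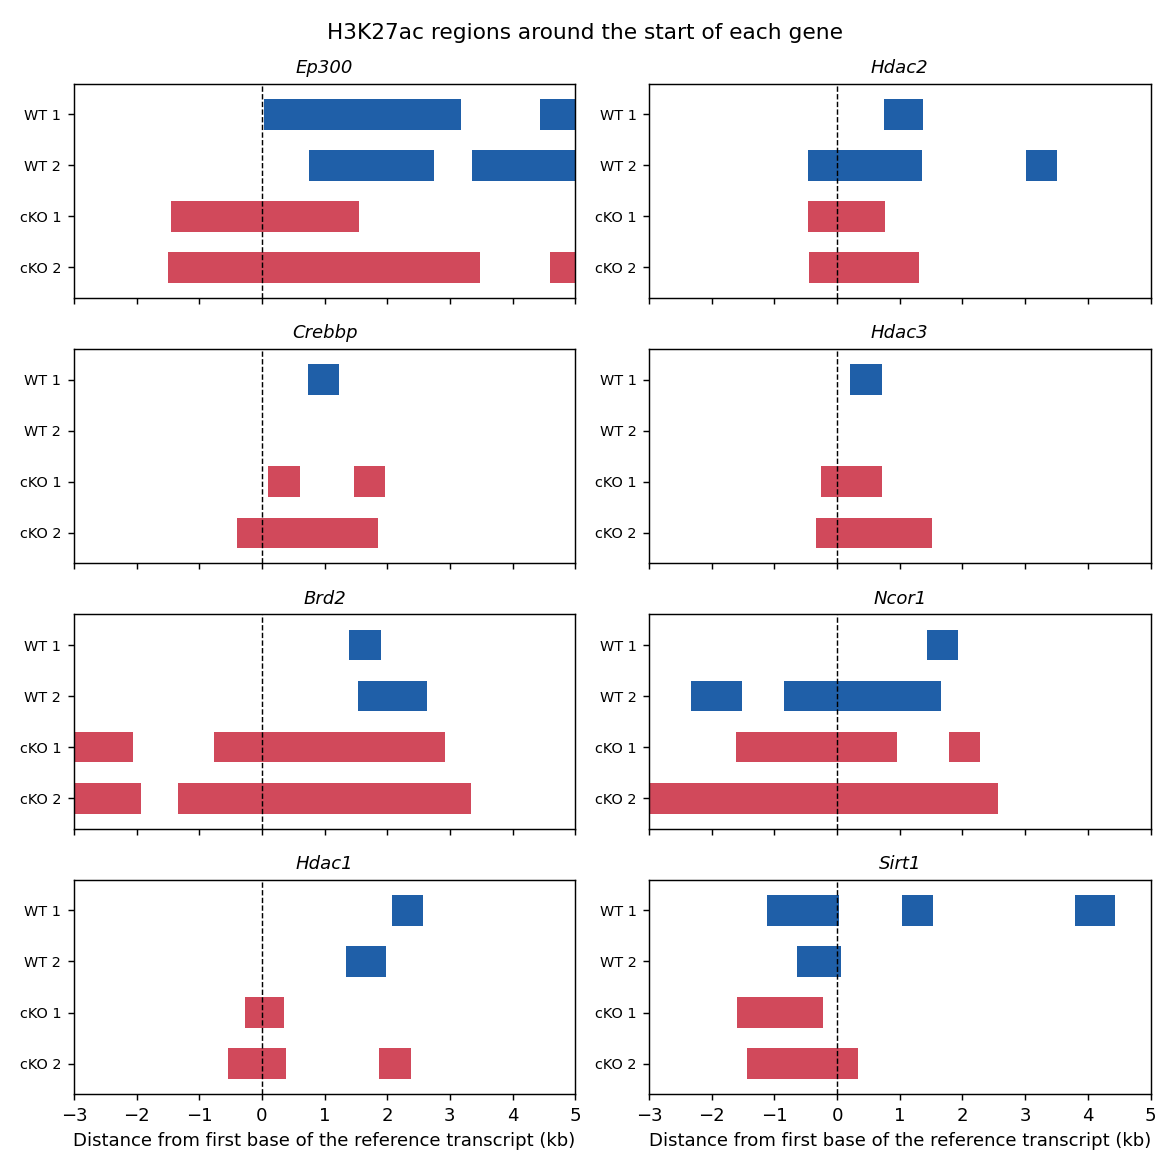
H3K27ac regions (bars) of the 2 WT (blue) and 2 cKO (red) libraries around the first base of the reference transcript of each gene (dashed line), as distance in kb in the direction of transcription. At Brd2 and Hdac1 the WT bars start at 1340 bp or more past the first base while the cKO bars span it.

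The length covered by regions gave no such common direction. H3K27ac covered less of the window in both cKO libraries than in either WT library at 3 of the 8 genes, Crebbp, Hdac2 and Sirt1, more at 1, Brd2, and the genotypes overlapped at 4. Of the 12747 genes with a region, 38.2% were lower and 17.4% higher, and of the 4364 with a promoter region in all 4 libraries, 48.4% and 14.7%. The count lower was therefore near the share over all genes. The median difference of the 8 genes was -2.12 percentage points of the window, against -1.01 over all genes tested and -3.28 over those with a promoter region in all 4 libraries. Leaving out a single library moved these counts, which can only rise in this way because fewer libraries then have to agree. Without WT replicate 2 or cKO replicate 2, 5 genes were lower. Without either WT library 2 were higher, and without cKO replicate 1, 3 were.

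H3K36me3 covered less of the window in cKO at 3 genes, Crebbp, Hdac2 and Ncor1, and more at 1, Brd2. Over 11959 genes 37.7% were lower and 7.84% higher, and over the 4229 of them with an H3K27ac promoter region in all 4 libraries, 34.6% and 10.2%. The median difference was -4.70 percentage points at the members and -4.99 over all genes, with -6.09 over the genes with a promoter region. In all 8 genes cKO replicate 1, the library with the smallest covered length, lay below cKO replicate 2. Without cKO replicate 1, 3 genes were lower and 4 higher, and without cKO replicate 2, 7 were lower and 1 higher. A test of 2 against 2 libraries cannot reach 0.05, and every gene without overlap had the smallest p it allows, 0.333 (two-sided exact permutation test).

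**Figure D3:**
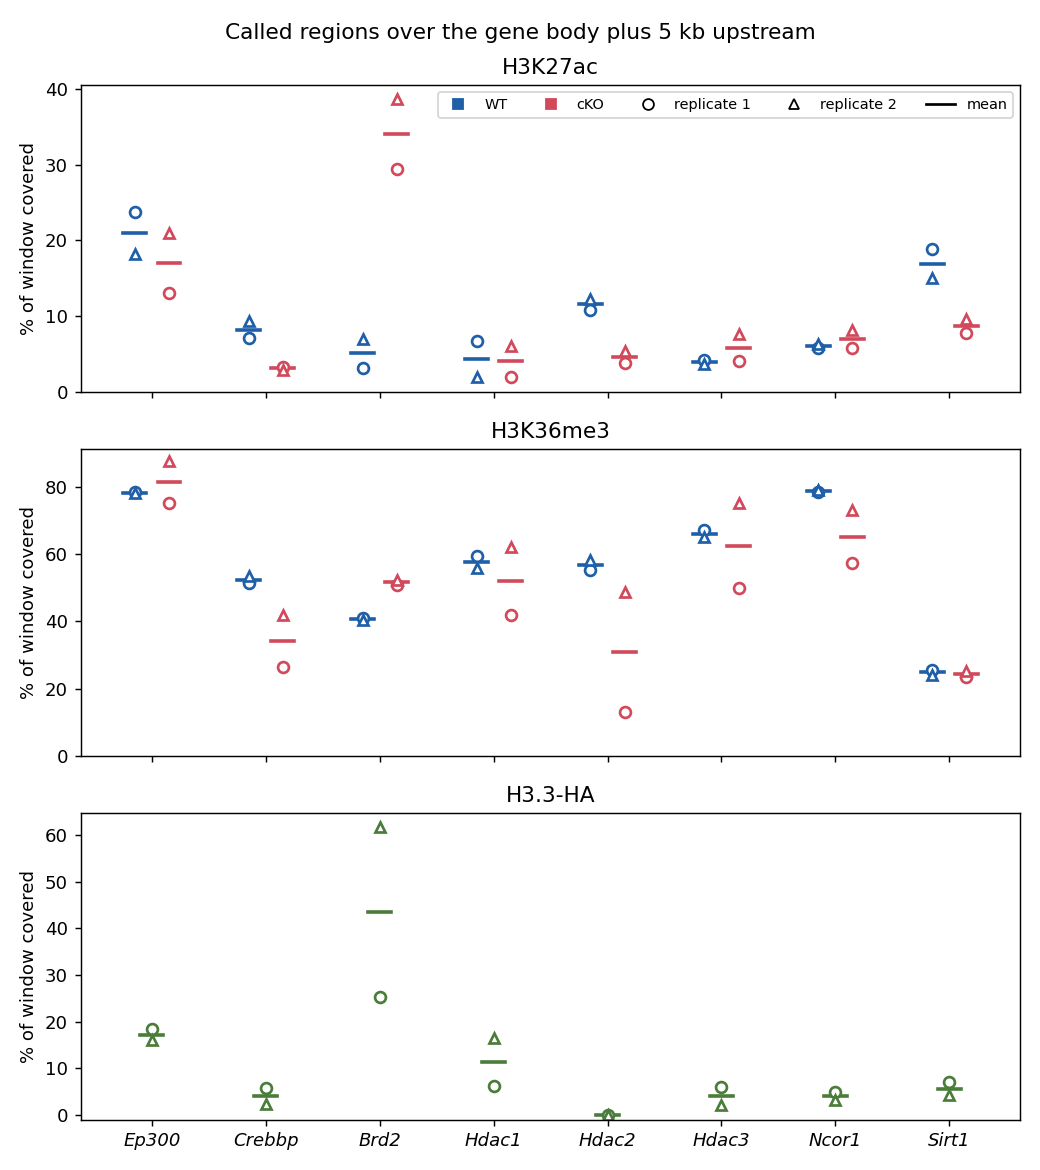
Percent of the window (gene body plus 5 kb upstream) covered by called regions in each library, with circles for replicate 1, triangles for replicate 2 and lines for the mean of 2 libraries. Brd2 is the only one of the 8 genes with both cKO values above both WT values, and this holds for H3K27ac and for H3K36me3.

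Regions that appeared or vanished were few. An H3K27ac region found in both cKO and neither WT list (gained) was present at 3 genes, Brd2, Hdac1 and Ncor1, and one found in both WT and neither cKO list (lost) at 3, Crebbp, Hdac2 and Ncor1. Among all genes with a region, 17.3% had a gained and 37.3% a lost one. For H3K36me3, 0 genes had a gained region (8.46% of all) and 2 a lost one, Crebbp and Hdac2 (23.6% of all). These counts were not stable. With lists of equal length, in which only the longest regions of each list were kept up to the number in the shortest list, 6 genes had a gained and 0 a lost H3K27ac region. Leaving out any single library raised both H3K27ac counts to between 4 and 7. For H3K36me3, 3 genes had a gained region without cKO replicate 1 and 5 had a lost one without WT replicate 2. With a library left out, fewer libraries had to agree for a call, which by itself favours higher counts.

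The writers Ep300 and Crebbp encode paralogous acetyltransferases, and the regions over them differed. Ep300 (chromosome 15, 81585351 to 81652077, plus strand) had no other protein-coding gene in its window. H3K27ac covered 17005 and 13056 bp of its window in WT and 9402 and 15085 bp in cKO, so the genotypes overlapped (cKO minus WT, -3.89 percentage points). The regions nearest to the start lay at +31 to +3171 and +748 to +2739 bp in WT, downstream of the first base, and at -1446 to +1543 and -1493 to +3477 bp in cKO, across it. H3K36me3 covered 56220 and 56054 bp in WT and 54007 and 62870 bp in cKO. With 78.3% of the window in WT, Ep300 had one of the highest values among all genes tested, of which 97.3% were lower, and in WT each library held 2 regions, the longer spanning 54178 and 52484 bp. Over the whole window cKO replicate 1 had 9 regions, the longest 28916 bp, and cKO replicate 2 had 2, the longest 58011 bp.

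At Crebbp (chromosome 16, 4081328 to 4213997, minus strand) H3K27ac covered 9748 and 12888 bp in WT and 4588 and 4020 bp in cKO, and the genotypes did not overlap (cKO over WT, 0.380). The shorter coverage lay within the gene and not at its start: the WT libraries had 9 and 19 regions, up to 3149 and 2558 bp long, of which the nearest to the start lay at +736 and +9332 bp, while the nearest cKO regions lay at +103 to +603 and -391 to +1855 bp. A region 118379 to 119275 bp into the gene (chr16:4094722-4095618) was found in both WT and neither cKO library. With lists of equal length the difference shrank from -7014 to -2191.5 bp. H3K36me3 covered 70751 and 73652 bp in WT and 36372 and 57863 bp in cKO, lower without overlap. The longest region measured 39177 and 46649 bp in WT and 10036 and 18109 bp in cKO. Without cKO replicate 1 the difference in length was -14338.5 bp in place of -25084 bp.

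Brd2, which encodes a bromodomain protein of the BET family, differed in the opposite direction to the other genes whose genotypes did not overlap. The gene (chromosome 17, 34112023 to 34122634, minus strand) sits in the major histocompatibility region. H3K27ac covered 501 and 1094 bp of its window in WT and 4606 and 6043 bp in cKO, a mean of 5.11% ± 2.69 against 34.1% ± 6.51 (SD, n = 2). The cKO mean was 6.68 times the WT mean, and 99.2% of genes tested had a smaller difference. Each WT library had a single region, at +1397 to +1897 and +1534 to +2627 bp, and the cKO libraries had one from -768 to +2923 and from -1344 to +3333 bp that contained it. A second region (chr17:34124524-34125640), at -3040 to -1924 bp from the start, was found in the cKO lists and in neither WT list. H2-DMa, a gene for an antigen-loading protein on the opposite strand, overlaps 3094 bp of the Brd2 body and 8094 bp of its window, so this region and much of the promoter are shared between these genes. Over the Brd2 body alone the difference was 2489.5 bp in place of 4527 bp.

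H3K36me3 over Brd2 was also longer in cKO. It covered 6408 and 6287 bp in WT and 7947 and 8192 bp in cKO, and 95.8% of genes tested had a smaller difference. In WT the region over the gene began at +5347 and +5413 bp, and in cKO at +4357 and +4215 bp, which is closer to the start. Brd2 was the gene of the 8 with the largest H3.3-HA share, 25.2% and 61.7% of the window in the 2 libraries. Part of both measures lay upstream, where H2-DMa lies. Over the Brd2 body alone the H3K36me3 difference was 1094 bp in place of 1722 bp. The mean H3.3-HA length there was 3812.5 bp in place of 6787 bp.

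Among the erasers, Hdac1 and Hdac2 encode partner deacetylases of the same complexes. Hdac1 (chromosome 4, 129516104 to 129542713, minus strand) had 2143 and 634 bp under H3K27ac in WT and 633 and 1926 bp in cKO, with overlap. The regions nearest to the start differed in position. In WT they lay at +2077 to +2577 and +1340 to +1973 bp, and in cKO at -275 to +357 and -536 to +387 bp, so that a merged region at the start (chr4:129542326-129543249) was gained. The cKO replicate 2 library also had regions at +1875 to +2375 bp, which met the WT position, and at +8661 bp, and WT replicate 1 had 3 more, at +6783, +11671 and +25614 bp. H3K36me3 covered 18807 and 17668 bp in WT and 13202 and 19615 bp in cKO, with overlap.

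Hdac2 (chromosome 10, 36974544 to 37001889, plus strand) was lower in cKO for both marks and had no H3.3-HA region in either library, alone among the 8 genes. H3K27ac covered 3510 and 3955 bp in WT and 1226 and 1759 bp in cKO, 11.5% ± 0.973 against 4.61% ± 1.17 of the window. A region across the start, from -466 to +759 and -452 to +1306 bp, was the only one in either cKO library. WT replicate 2 had one from -468 to +1356 bp, and the nearest in WT replicate 1, from +746 to +1376 bp, did not reach the start. The WT libraries had 5 regions each, and those at 36995581 to 36996284 and 37000337 to 37001813 near the end of the gene were found in neither cKO library. With regions of at least 1 kb, or with lists of equal length, the difference was -43.5 bp in place of -2240 bp and the genotypes overlapped. H3K36me3 covered 17897 and 18899 bp in WT and 4247 and 15799 bp in cKO, and 4.39% of genes tested had a more negative difference. Most of it came from cKO replicate 1, and without that library the difference was -2599 bp in place of -8375 bp. In both cKO libraries the first H3K36me3 region lay deeper in the gene, at +9705 and +8106 bp against +6834 and +6724 bp in WT.

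Hdac3 (chromosome 18, 37935844 to 37955016, minus strand) had little of its window under H3K27ac, 1002 and 895 bp in WT and 972 and 1852 bp in cKO, with overlap. In WT replicate 2 part of this was the edge of a region of 15379 bp that starts at +18779 bp and runs past the end of the gene. In cKO a single region spanned the start, from -253 to +718 and -342 to +1509 bp, while WT replicate 1 had one from +210 to +710 bp and the nearest of WT replicate 2 began at +15747 bp. H3K36me3 covered 16238 and 15752 bp in WT and 12058 and 18182 bp in cKO, with overlap. Rell2 and Fchsd1 lie in the upstream 5 kb. Rell2, on the opposite strand, starts at 37955079, and the cKO regions across the Hdac3 start reach 37955269 and 37955358. These regions thus cover the starts of both genes and cannot be given to a single gene.

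Ncor1, which encodes the corepressor that carries and activates HDAC3, is the longest of the 8 genes (chromosome 11, 62316426 to 62458541, minus strand). H3K27ac covered 8447 and 9381 bp in WT and 8543 and 12037 bp in cKO, with overlap. Of 35 merged regions in the window, 2 were gained, 1 was lost and 1 was in all 4 libraries. Most of the 35 were called in a single library, so replicates of the same genotype also differed. The gained regions lay at 62336589 to 62337439 and 62356884 to 62357511, and the lost one at 62354555 to 62355932. H3K36me3 covered 115439 and 116385 bp in WT, 78.8% ± 0.455 of the window and the highest share of the 8 genes, and 84308 and 107629 bp in cKO. The genotypes did not overlap. Without cKO replicate 1 the difference was -8283 bp in place of -19943.5 bp. Ttc19 overlaps 12026 bp of the body of Ncor1 and Pigl 5082 bp of its window on the opposite strand, and their share in these values was not tested.

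Sirt1 encodes a deacetylase that acts on histones and on transcription factors such as NF-kB and p53. Its record (chromosome 10, 63319005 to 63381704, minus strand) starts 42672 bp upstream of the reference transcript, so most of the window lies before the usual start. Dnajc12 overlaps 4262 bp of the window. H3K27ac covered 12731 and 10187 bp in WT and 5260 and 6518 bp in cKO, lower without overlap, and within the reference transcript alone 49.9% ± 7.78 in WT and 21.9% ± 3.51 in cKO. The longest stretch that differed was intronic. A region of 7238 and 7370 bp, from +7323 to +14560 and from +7353 to +14722 bp, was present in WT, and within it the cKO libraries had regions of at most 2563 and 3382 bp. H3K36me3 was level between the genotypes, with 17357 and 16366 bp in WT and 15970 and 17054 bp in cKO, and 81.7% ± 0.0388 and 82.4% ± 3.83 of the reference transcript.

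**Figure D4:**
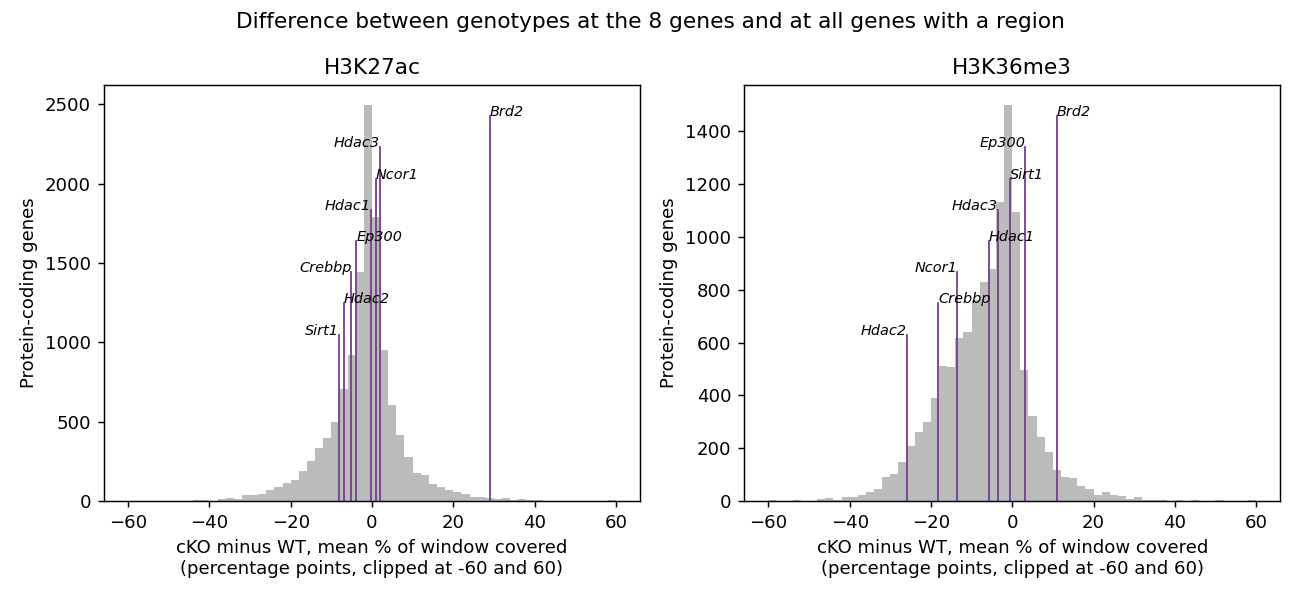
Number of protein-coding genes (vertical axis) by cKO minus WT difference in the mean percent of the window covered (horizontal axis, percentage points), for 12747 genes with an H3K27ac region and 11959 with an H3K36me3 region, with the 8 genes as lines. Brd2 lies at 29.0 and 11.03, and Hdac2 lies lowest for H3K36me3 at -25.9.

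H3.3-HA, which shows where tagged H3.3 was found in cells without the deletion, was present in the window in both libraries at 7 of the 8 genes, against 44.1% of all genes. It covered 13167 and 11510 bp at Ep300, 8007 and 3127 bp at Crebbp, 3941 and 9633 bp at Brd2, 1931 and 5238 bp at Hdac1, 1425 and 501 bp at Hdac3, 7223 and 4836 bp at Ncor1 and 4767 and 2851 bp at Sirt1. As a share of the window, the mean was 43.5% ± 25.8 at Brd2, 17.2% ± 1.63 at Ep300, 11.3% ± 7.40 at Hdac1, 5.63% ± 2.001 at Sirt1, 4.098% ± 1.15 at Ncor1, 4.04% ± 2.51 at Crebbp and 3.98% ± 2.70 at Hdac3 (SD, n = 2). Both Brd2 values lay above both Ep300 values, and every other pair of neighbours in this order overlapped.

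These regions lay at the ends of more of the genes than at their starts. An H3.3-HA region lay within 1 kb of the last base in both libraries at 5 genes, Ep300, Crebbp, Brd2, Hdac1 and Hdac3, against 13.9% of all genes and 29.3% of the 9672 genes with a region in the window in both. Within 1 kb of the first base of the reference transcript both libraries had one at 1 gene, Sirt1, against 13.1% of genes, and no first base itself was covered. By the wider promoter the count was 2, Brd2 and Sirt1 (13.4% of all genes). The regions at the ends were long at Brd2 (9308 bp merged over both libraries), Ep300 (4746 bp), Hdac1 (4309 bp) and Crebbp (3583 bp), and 945 bp at Hdac3. The end of Marcksl1 (129515985) lies within 1 kb of the last base of Hdac1, and the start of Diaph1 (37935476) within 1 kb of that of Hdac3, so those regions cannot be given to a single gene. The count at the last base was added after the values were seen, and with regions of at least 1 kb it was 3.

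Merged over both libraries, 58 H3.3-HA regions lay at the members and 15 were found in both. Of these 15, 5 overlapped H3K27ac in both WT libraries, 8 overlapped H3K36me3, 1 both marks and 3 neither. The region with both marks lies inside Ep300 (chr15:81604480-81611151, 6672 bp), 19083 to 25754 bp past the start, and all of its bases were under H3K36me3 in both genotypes. At Crebbp a region 11593 to 15045 bp past the start (chr16:4198952-4202404) held at least 2235 bp of H3K27ac in each WT library and at least 501 bp in each cKO library.

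The other genes of the same pathways were taken from lists of 20 writers, 14 erasers, 29 readers and 28 corepressor subunits, all of which matched the annotation. H3K27ac covered less in cKO at 38 of the 86 with a region (44.2%) and more at 13 (15.1%), beside 38.2% and 17.4% of all genes. H3K36me3 covered less at 37 of 88 (42.0%) and more at 2 (2.27%), beside 37.7% and 7.84%. Readers had the largest shares lower, 16 of 28 for each mark, against 9 and 8 of 20 writers, 3 of 11 and 4 of 13 erasers, and 10 and 9 of 27 corepressor subunits. The direction of Brd2 was thus uncommon among readers, of which 2 were higher for H3K27ac and 1 for H3K36me3.

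Among the writers, Ncoa2, a nuclear receptor coactivator, had 34904 and 31494 bp of H3K27ac in WT and 4834 and 7882 bp in cKO, and Kat6a had 25415 and 19180 bp and 6761 and 13374 bp. For H3K36me3, Ncoa2 went from 53774 and 57541 bp to 11638 and 34455 bp and Ncoa1 from 54009 and 59863 bp to 14975 and 39595 bp. Both genotypes were apart in each of these. Among the erasers, the class IIa deacetylase gene Hdac9 had less H3K27ac length in cKO, 95225 and 79374 bp in WT and 29781 and 38732 bp in cKO, and more H3K36me3 length, 6971 and 4008 bp in WT and 18862 and 57667 bp in cKO. Hdac4, of the same class, was lower for both, with 44331 and 29595 bp of H3K27ac in WT and 12799 and 24730 bp in cKO, and 46163 and 54204 bp of H3K36me3 in WT and 13974 and 41128 bp in cKO.

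Of the readers, Phip went in H3K27ac from 53482 and 46216 bp to 21742 and 22251 bp and Baz2b from 71573 and 75245 bp to 43306 and 51156 bp. In H3K36me3, Smarca2, an ATPase of the BAF remodelling complex, went from 61516 and 63624 bp to 9841 and 47378 bp and Brwd1 from 70279 and 69727 bp to 22644 and 56438 bp. The corepressor genes Mbd2 and Tbl1xr1, the latter a subunit of the NCOR complex, went in H3K27ac from 40052 and 31743 bp to 15130 and 19730 bp and from 39305 and 32865 bp to 13244 and 22349 bp. The NuRD subunit genes Mta3 and Chd3 went in H3K36me3 from 62621 and 63973 bp to 24089 and 53911 bp and from 19388 and 20070 bp to 6731 and 16285 bp. In each of these genes both cKO values lay below both WT values, and in all of the H3K36me3 cases the lowest value was that of cKO replicate 1.

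The first base of the reference transcript was covered in both cKO and neither WT library at 20 of 89 of these genes, beside 11.6% of all genes, and in the opposite way at 0. Of the 89, 82 had an H3K27ac promoter region in at least 1 library, and 25.8% of all such genes showed the pattern, so the 20 were no larger a share than the background. They were Kat5 and Kat7 among the writers, Sirt2 and Sirt3 among the erasers, 7 readers that included Brd9 and Smarca4, and 9 corepressor subunits that included Chd4, Rcor1, Rbbp4 and Gps2. The wider promoter gave 7 of 91 genes in cKO alone and 4 in WT alone, beside 6.12% and 1.55% of all genes. An H3.3-HA region lay at a promoter in both libraries at 24 of 91, beside 13.4% of all genes. For these counts by the wider promoter, no background limited to genes with an H3K27ac promoter region was computed. Whether they exceed such a background was not tested.

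The gene with the nearest profile of covered percent over the 10 libraries (Euclidean distance in percentage points, among genes with windows of 0.5 to 2 times the length) was Baz1b for Ep300 (distance 11.8), Tbc1d9 for Crebbp (6.19), Eno1 for Brd2 (22.1), Actr8 for Hdac1 (9.81), Mfn1 for Hdac2 (8.92), Fam76a for Hdac3 (9.13), Itch for Ncor1 (9.43) and Usp7 for Sirt1 (5.35). Brd2 had the most distant nearest gene. Eno1 was chosen on these same values, so its likeness to Brd2 was set by the choice. H3K27ac covered 32.3% and 40.3% of the Eno1 window in cKO against 17.1% and 9.39% in WT, and H3.3-HA 33.5% and 58.5%.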

How the data were processed

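Region lists of 10 libraries were used, and the 5 control IgG samples of its 15 samples entered only as the background of the authors' calls. The authors aligned reads to mm10 with Bowtie2 and called regions per library with HOMER, without pooling replicates. Per the file headers, at least 4-fold over the IgG control was required. The deposited files give start and end positions in bp, and their score column is constant at 1 and was not used. The controls named for WT, cKO and H3.3-HA libraries differ.

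Covered bases, overlaps of 1 bp or more and merged regions were computed with Python 3.11.15, numpy 2.4.6, pandas 2.3.3 and scipy 1.17.1 on GENCODE M21, and the functions were tested on simulated data. Genotypes were compared per gene by a two-sided exact permutation test. A comparison of read counts, as in the study, needs data that the lists do not hold. The named genes were the 8 members, the 2 genes of each role list and mark with the largest difference without overlap, the gene with the nearest profile, neighbours within the window and the targeted genes. Others were named after their values were seen. The members and lists were chosen with earlier results of these data known. Motif letters were searched on both strands of RefSeq promoters. Alternatives were regions of at least 1 kb, lists of equal length, other windows, promoters and overlaps, and leaving out each library.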

Additional observations from a re-analysis of the deposited data

How the results depend on the processing

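The lists hold no signal, so a region near the calling threshold in 1 library can be missed in another. The sign of the difference was kept under all 8 alternatives for each gene whose genotypes did not overlap. At these genes leaving out a library could not turn the sign, so only the settings of region width, list length and window could. For Hdac2 with H3K27ac the difference was -43.5 bp with regions of at least 1 kb and with lists of equal length. The sign turned under at least 1 alternative for Ep300, Hdac1, Hdac3 and Ncor1 with H3K27ac and for Ep300, Hdac1, Hdac3 and Sirt1 with H3K36me3, all of which overlapped as reported. The cause of these changes was not tested.

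With lists of equal length, 3 genes were higher in cKO for H3K27ac, 6 had a gained and 0 a lost region. With regions of at least 1 kb, 0 genes had a gained and 1 a lost H3K27ac region, 1 had a lost H3K36me3 region, 0 had an H3K27ac promoter region in all 4 libraries, 1 had an H3.3-HA promoter region in both libraries, 1 had an H3K27ac promoter region in cKO alone, 2 had the first base covered in cKO alone and 3 had H3.3-HA at the last base in both. With a promoter of 1 kb on both sides, 6 genes had an H3K27ac promoter region in all 4 libraries and 1 in cKO alone. With the start of the gene record only, 0 genes had an H3K27ac promoter region in all 4 libraries and 0 an H3.3-HA one in both. With the starts of the GENCODE basic set, chosen after the data were seen, these counts were 1 and 1.

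Leaving out a library lets fewer libraries make a call, which by itself favours higher counts in the ranges that follow. Leaving out each library in turn, genes lower in cKO ranged from 3 to 5 for H3K27ac and from 3 to 7 for H3K36me3, and genes higher from 1 to 3 and from 1 to 4. Genes with a gained region ranged from 4 to 6 for H3K27ac and from 0 to 3 for H3K36me3, and with a lost region from 4 to 7 and from 2 to 5. The genes with a promoter region in all 4 libraries ranged from 3 to 4, with one in cKO alone from 3 to 4, with a first base covered in cKO alone from 4 to 6 and with H3.3-HA at the last base from 5 to 6.

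The replicate numbers of the labels name samples only. With the replicate block, in which cKO and WT libraries of the same number were compared, 2 genes were higher in cKO for H3K27ac, and 3 were lower for H3K27ac and for H3K36me3. The deviations of same-numbered libraries correlated at -0.100 for H3K27ac (12747 genes) and 0.105 for H3K36me3 (11959 genes).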
